A study of Mus with 12 samples.

Results

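The tripartite motif (TRIM) family is described here in macrophages of 2 genotypes, each with and without a lipoprotein treatment. Its members were taken as every gene whose symbol begins with Trim followed by a digit, which gave 53 of the 27294 genes in the deposited table. By role, 15 of them were listed as interferon-linked, 10 as acting in other innate signalling, 4 as chromatin factors, 3 as NHL-repeat proteins, 4 as acting in the cytoskeleton or in muscle, and 17 were left as other members. Read counts were high enough for testing in 49 members, and these included all 15 interferon-linked ones.

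TRIM proteins share a RING finger, B-box domains and a coiled coil, followed by a variable C-terminal domain that binds the target. The RING finger makes most of them E3 ubiquitin ligases, the enzymes that choose which protein receives ubiquitin, although some members lack it. In macrophages many members are known as genes switched on by type I interferon, and their products restrict viruses or tune the sensors of viral RNA and DNA, while other members act in transcription, in the cytoskeleton or in organelle turnover.

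The libraries were RNA sequencing libraries whose source is given as mouse peritoneal macrophages, cells taken from the abdominal cavity. The 4 groups were wild type (WT) without treatment, WT with oxLDL (oxidised low-density lipoprotein, a modified carrier of cholesterol that macrophages take up), knockout (KO) without treatment and KO with oxLDL, with n = 3 libraries each. The treatment label reads oxLDL where the titles read LDL, the libraries with no treatment label are called untreated, and no dose, time, strain, age or Cre driver was given. The genotype label does not say which gene was deleted; WEE1, a kinase that holds cells back from mitosis, stands in the series title. Whether the replicates came from separate animals was not stated, so p-values rest on the spread among these libraries only.

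Library totals ran from 53588814 to 76809931 counts, and WT replicate 2 was the shallowest library with and without oxLDL. Wee1 stood at 3.10, 3.25 and 2.80 FPKM (fragment counts scaled by transcript length and library size) in untreated WT, at 1.63, 1.60 and 1.22 in untreated KO, at 1.44, 1.78 and 1.63 in WT with oxLDL and at 1.30, 1.60 and 1.25 in KO with oxLDL. The fitted log2 difference of KO from WT was -0.93 ± 0.14 untreated and -0.53 ± 0.14 with oxLDL, both called (edgeR adjusted p = 0.000139 and 0.00587). Wee1 was still detected in every KO library, and in FPKM the genotypes overlapped with oxLDL. All 7 pan-macrophage markers were above 1 FPKM, with a summed level of 20989 to 21385 FPKM in untreated WT, 14594 to 15589 in WT with oxLDL, 11074 to 11781 in untreated KO and 10637 to 11279 in KO with oxLDL. That sum was mostly Lyz2 (18201 to 18667, 12062 to 12913, 8614 to 9184 and 8171 to 8795 FPKM in the same order), and single markers ran otherwise. Cd68 was the 1 marker of the 7 that was higher in KO (1944 to 2106 FPKM untreated, beside 1600 to 1679 in untreated WT). Adgre1 stood at 533 to 564 FPKM in untreated WT, 749 to 776 in WT with oxLDL and 149 to 159 over the KO libraries. Fcgr1 stood at 39.4 to 41.7, 122 to 137 and 9.0 to 9.4 FPKM in that order. Both moved in the same order over the groups as the interferon-linked TRIM genes below, and their part in the results was not tested. The source label does not say whether the peritoneal macrophages were of the large or the small type. Gata6, the transcription factor that defines large peritoneal macrophages, stayed at 0.0610 to 0.278 FPKM in all 12 libraries, so that marker was close to absent. Other markers listed for that type differed. Timd4 split by genotype, from 1.27 to 2.16 FPKM over the WT libraries and at most 0.117 in any KO library. Icam2 ran from 2.04 to 2.26 FPKM in untreated WT and from 1.20 to 1.44 over the KO libraries. It was lowest where WT had received oxLDL, at 0.781 to 1.09. Garnl3 and Selp stayed under 1 FPKM throughout. The part of large peritoneal macrophages in the results was not tested. Monocyte and small peritoneal macrophage markers summed to 21.9 to 23.8 FPKM in untreated WT, 42.0 to 45.6 in WT with oxLDL, 3.22 to 3.24 in untreated KO and 2.96 to 3.71 in KO with oxLDL. These sums, which moved in the same order over the groups as the interferon-linked TRIM genes below, were mostly Ly6c2 (20.3 to 22.6, 41.1 to 44.7, 0.425 to 0.724 and 0.473 to 0.632 FPKM). Ccr2 ran the other way at 0.551 to 0.794, 0.335 to 0.433, 1.29 to 1.43 and 1.39 to 1.71 FPKM, as did Mgl2 at 0.148 to 0.329, 0.0240 to 0.0550, 0.359 to 0.553 and 0.388 to 0.702, and the part of such cells in the results was not tested. In bulk libraries, fewer cells of a type and less RNA per cell cannot be told apart.

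As a whole the family was most abundant in WT with oxLDL. The FPKM of all members summed to 390 to 401 in untreated WT, 760 to 801 in WT with oxLDL, 243 to 248 in untreated KO and 238 to 249 in KO with oxLDL. The interferon-linked members made up most of that difference: they summed to 247 to 260 FPKM, 639 to 684, 109 to 112 and 106 to 112 in the same order of groups. The 10 innate signalling members, by contrast, summed to 45.8 to 46.7 FPKM in untreated WT, 44.4 to 45 in WT with oxLDL and 39.8 to 42.0 over the 6 KO libraries.

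The rank order of the members also differed between groups. Trim30a, whose product is known to restrain NF-κB signalling by removing the adaptor TAB2, was the highest member in both WT groups, at 67.8 ± 0.847 FPKM (SD, n = 3) untreated and 236 ± 10.3 with oxLDL. It ranked below Trim25 and Trim35 in untreated KO, at 18.7 ± 0.919 FPKM, and in KO with oxLDL, at 17.7 ± 0.859. Trim30a alone accounted for 17.1 to 17.2% of the summed FPKM of the family in untreated WT, 29.5 to 30.4% in WT with oxLDL and 7.08 to 7.95% over the 6 KO libraries. In KO, Trim25 led the family with 40.1 ± 0.740 FPKM untreated and 38.7 ± 0.731 with oxLDL. Members at a mean of 10 FPKM or more numbered 13 in untreated WT, 15 in WT with oxLDL and 6 in each KO group.

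**Figure D1:**
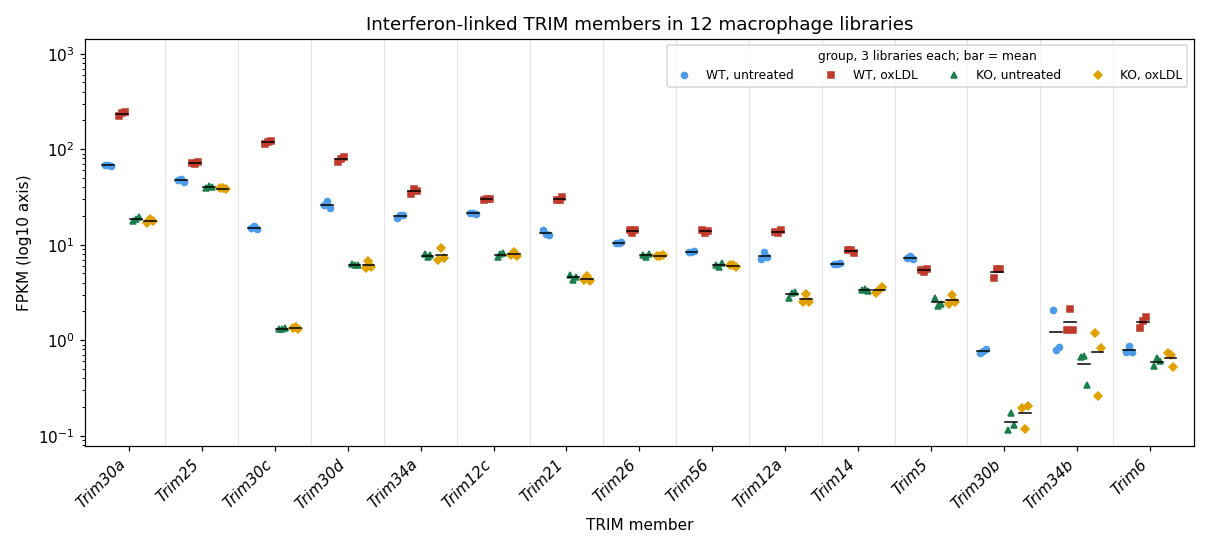
FPKM on a log10 axis of the 15 interferon-linked TRIM members in each of the 12 libraries, with 4 groups of 3 libraries and a bar at each group's mean. The means of WT with oxLDL lie highest for every member but Trim5, and the KO points with and without oxLDL lie side by side below those of untreated WT, except for Trim34b, where the groups overlap.

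In WT macrophages, oxLDL was followed by a rise of nearly all interferon-linked members and by a mixed response of the others. By the quasi-likelihood test of edgeR, adjusted after Benjamini and Hochberg over all 17291 genes tested, 18 of 49 members were called higher and 10 lower, while over all genes 51.2% were called, 23.9% higher and 27.2% lower. The family's share of 57.1% called was thus close to that of all genes. The interferon-linked list held 13 of 15 higher and 0 lower, with a median log2 change of 1.25 beside -0.06 over all genes, and the 34 tested members outside that list held 5 higher and 10 lower with a median of -0.01. In 13 of the 15 the libraries of the groups did not overlap and were higher with oxLDL, a state found in 27.9% of all genes. Scaling by library totals alone moved the split of calls in the family to 16 higher and 22 lower and the median over all genes to -0.46. The 13 interferon-linked genes were called higher under each of 5 scalings. Library totals alone lowered the smaller rises by more than 1.5 times, to 0.72 for Trim56, 0.71 for Trim36, 0.59 for Trim25, 0.50 for Trim12c, 0.44 for Trim14 and 0.41 for Trim26. They also deepened falls, to -1.15 for Trim24, -1.11 for Trim32, -1.12 for Trim47, -1.06 for Trim59 and -1.14 for Trim68.

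In KO macrophages, oxLDL moved no TRIM gene past the threshold. The count was 0 of 49 by edgeR's quasi-likelihood test, DESeq2 and limma alike, and 3 members, 1 of them interferon-linked, had an unadjusted p under 0.05 by edgeR. Over all genes 0.0116% were called. The log2 changes of the 15 interferon-linked members ran from -0.18 to 0.42 with a median of 0.00. Their 95% intervals lay between -0.66 and 1.5, and between -0.36 and 0.74 without Trim34b, the member with the widest interval.

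Between untreated genotypes, the interferon-linked members were lower in KO and most others did not pass the test. In the family 3 members were called higher and 14 lower in KO by edgeR's quasi-likelihood test, against 31.0% of all genes called, 14.8% higher and 16.2% lower. Of the interferon-linked members 13 of 15 were called lower, with a median log2 difference of -1.27 beside -0.01 over all genes, and all 15 had groups that did not overlap, as had 22.9% of all genes in that direction. Among the 34 tested members outside the list 3 were higher and 1 lower.

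With oxLDL in both genotypes the gap was wider. All 15 interferon-linked members were called lower in KO, with a median log2 difference of -2.23 beside 0.05 over all genes, and no library of one genotype overlapped the other's, as in 30.1% of all genes in that direction. Over the family 10 members were higher and 19 lower, against 57.9% of all genes called, 30.6% higher and 27.4% lower. Scaling by library totals alone gave 20 higher and 15 lower in the family, with 14 of the 15 interferon-linked members called lower (Trim34b was not) and a median over all genes of 0.36. These comparisons share libraries with the WT response to oxLDL, so their values stand side by side and do not support each other.

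The difference between the genotypes' responses was tested as an interaction, the log2 change with oxLDL in KO minus that in WT. It was called below 0 in 17 members and above 0 in 8, against 41.7% of all genes called, 22.1% above and 19.6% below. The interferon-linked list held 13 of the 17, with a median of -1.25 beside 0.08 over all genes. Library totals alone gave 19 above and 16 below in the family.

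**Figure D2:**
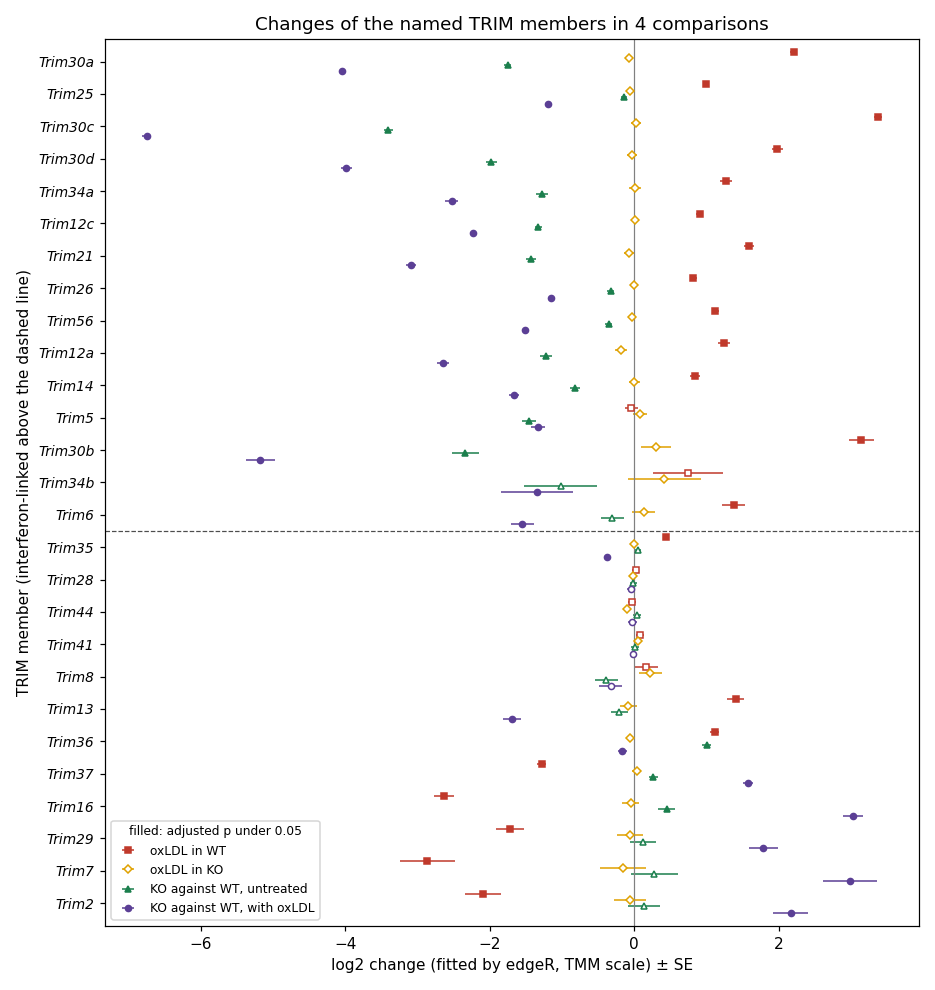
Log2 change ± SE of the 27 named TRIM members, fitted by edgeR on the TMM scale, in 4 comparisons of 3 libraries against 3; filled symbols have an adjusted p under 0.05. Above the dashed line the interferon-linked members lie to the right with oxLDL in WT, except Trim5 at -0.04. All interferon-linked members lie to the left in KO against WT, while the open diamonds of oxLDL in KO stay near 0.

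The 4 Trim30 genes had the largest differences between genotypes with oxLDL among the members called. They encode rodent relatives of TRIM5 and lie side by side on chromosome 7. Trim30c (chromosome 7, 104382065 to 104400837 on GRCm38, minus strand) had 14.8, 15.9 and 14.6 FPKM in untreated WT, 112, 120 and 121 in oxLDL-treated WT, 1.31, 1.32 and 1.33 in untreated KO and 1.33, 1.39 and 1.32 in KO with oxLDL. The WT libraries with oxLDL stood far above all others, and the 6 KO libraries lay together below the untreated WT ones, with 178 to 190 counts each beside 11576 to 16296 in WT with oxLDL. Its log2 change with oxLDL was 3.37 ± 0.05 in WT (edgeR adjusted p = 5.84e-15), and KO was lower than WT by -3.40 without and -6.75 with oxLDL on the log2 scale, which in FPKM means was an 11.4-fold and an 87.5-fold difference.

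Trim30a (chromosome 7, 104409025 to 104465193) had 67.6, 68.7 and 67.0 FPKM in untreated WT, 224, 240 and 244 in oxLDL-treated WT, 17.9, 18.5 and 19.7 in untreated KO and 16.8, 18.5 and 17.8 in KO with oxLDL. No library of WT overlapped one of KO, and the KO groups overlapped each other. The log2 change with oxLDL was 2.21 ± 0.05 in WT and -0.08 ± 0.05 in KO, and the difference of KO from WT was -1.75 ± 0.05 untreated and -4.04 ± 0.05 with oxLDL.

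Trim30d read 26.2, 28.4 and 24.1 FPKM in untreated WT, 72.9, 79.3 and 82.6 in oxLDL-treated WT, 6.22, 6.20 and 6.19 in untreated KO and 5.66, 6.77 and 5.85 in KO with oxLDL, the same order of groups. Its log2 change with oxLDL in WT was 1.98 ± 0.07, and KO differed from WT by -1.98 ± 0.07 untreated and by -3.98 ± 0.08 with oxLDL. Trim30b was low throughout, at 0.739, 0.779 and 0.816 FPKM in untreated WT, 4.53, 5.56 and 5.53 in oxLDL-treated WT, 0.115, 0.175 and 0.129 in untreated KO and 0.195, 0.117 and 0.206 in KO with oxLDL. Despite that level its groups separated in the same way, with a log2 change of 3.14 ± 0.17 with oxLDL in WT and a difference between genotypes of -2.33 ± 0.19 untreated and -5.17 ± 0.19 with oxLDL. Adjusted p-values of these 4 genes ran from 5.84e-15 to 9.49e-10 for oxLDL in WT by edgeR's quasi-likelihood test (Benjamini-Hochberg). These genes are near-identical in part and the counting of shared reads was not stated, so the split of reads between them is uncertain.

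Within the Trim30 group the FPKM ratios between members also differed between groups. The FPKM ratio of Trim30c to Trim30a was 0.223 ± 0.0076 (SD, n = 3) in untreated WT, 0.499 ± 0.0016 in WT with oxLDL, 0.0708 ± 0.0031 in untreated KO and 0.0759 ± 0.0028 in KO with oxLDL. Trim30c over Trim30d ran the same way, at 0.576 ± 0.0246, 1.51 ± 0.0361, 0.213 ± 0.0016 and 0.222 ± 0.0157 in that order of groups. No library of WT with oxLDL or of untreated WT overlapped another group in either ratio. Being ratios within a library, these values do not depend on how the libraries were scaled. They do rest on the split of reads between these near-identical genes, which is uncertain.

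Trim5, Trim12a, Trim12c, Trim34a and Trim34b are the neighbours of the Trim30 genes. The primate form of TRIM5 is known for blocking incoming retroviral capsids, and Trim12 and Trim34 genes encode relatives of it. Trim34a had 19.2, 20.4 and 20.4 FPKM in untreated WT, 34.1, 38.3 and 36.9 in oxLDL-treated WT, 7.95, 7.35 and 7.73 in untreated KO and 6.97, 9.13 and 7.25 in KO with oxLDL. Trim12c had 21.7, 21.6 and 20.7, 29.6, 30.3 and 30.4, 7.52, 7.91 and 8.25 and 7.81, 8.37 and 7.65 FPKM in the same order of groups. For both genes WT with oxLDL was highest, untreated WT lay between, and the KO groups overlapped each other at the bottom.

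The log2 change with oxLDL in WT was 1.27 ± 0.08 for Trim34a and 0.91 ± 0.05 for Trim12c, and KO was lower than WT without treatment by -1.27 and -1.33. Trim12a followed the same order with 7.16, 8.39 and 7.46 FPKM in untreated WT, 13.6, 13.4 and 14.1 in oxLDL-treated WT, 2.78, 3.15 and 3.22 in untreated KO and 2.51, 3.04 and 2.54 in KO with oxLDL. Its log2 change was 1.25 ± 0.08 with oxLDL in WT and -2.65 ± 0.09 in KO against WT with oxLDL.

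Trim5 did not follow its neighbours in the response to oxLDL. It stood at 7.33, 7.60 and 7.08 FPKM in untreated WT, 5.45, 5.15 and 5.52 in oxLDL-treated WT, 2.77, 2.30 and 2.39 in untreated KO and 2.38, 2.98 and 2.53 in KO with oxLDL. All 6 WT libraries lay above the 6 KO libraries, and in FPKM WT with oxLDL lay below untreated WT. On the TMM scale its log2 change with oxLDL in WT was -0.04 ± 0.09 and not called (edgeR adjusted p = 0.755), whereas library totals alone gave -0.45 and called it lower. KO was lower by -1.45 ± 0.10 untreated and -1.33 ± 0.10 with oxLDL, and the interaction of 0.12 ± 0.13 was not called (edgeR adjusted p = 0.52), whereas library totals alone gave 0.53 and called it above 0.

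The ratio of Trim5 to Trim12a, free of library scaling, was 0.960 ± 0.0593 (SD, n = 3) in untreated WT, 0.392 ± 0.0087 in WT with oxLDL, 0.823 ± 0.151 in untreated KO and 0.975 ± 0.0245 in KO with oxLDL. Against Trim34a the ratio was 0.367 ± 0.0176, 0.148 ± 0.0127, 0.324 ± 0.0220 and 0.339 ± 0.0118. In both ratios WT with oxLDL stood below every other library, and the other 3 groups lay close together.

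**Figure D3:**
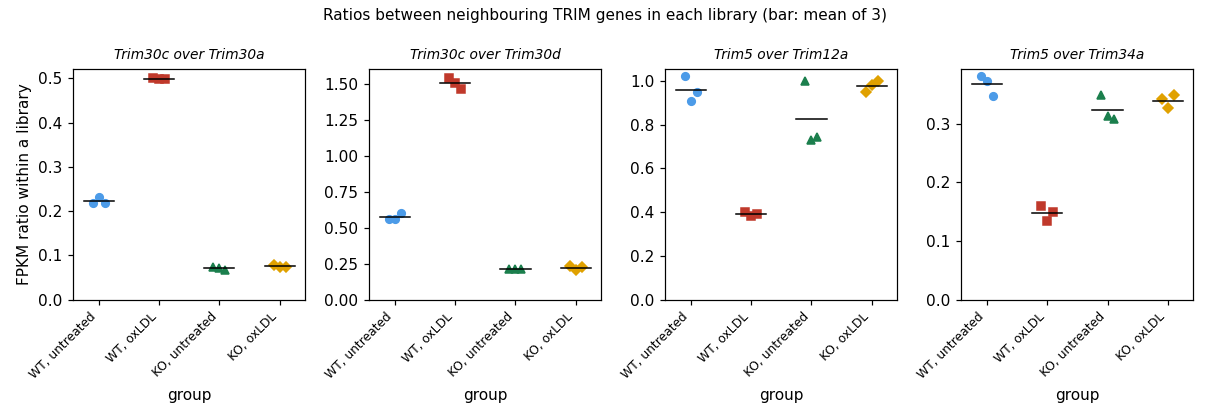
FPKM ratios of neighbouring TRIM genes within each library, 3 libraries a group with a bar at the mean; each panel has its own axis from 0. Trim30c over Trim30a and over Trim30d is highest in WT with oxLDL and low in both KO groups, while Trim5 over Trim12a and over Trim34a is lowest in WT with oxLDL.

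Trim34b had 2.05, 0.783 and 0.839 FPKM in untreated WT, 1.27, 2.14 and 1.29 in oxLDL-treated WT, 0.670, 0.684 and 0.339 in untreated KO and 1.18, 0.260 and 0.821 in KO with oxLDL. Single libraries spread more here than in the other interferon-linked members, with untreated WT replicate 1 and WT oxLDL replicate 2 the highest of their groups. The log2 differences were 0.75 ± 0.49 for oxLDL in WT and -1.02 ± 0.50 for untreated KO against WT, neither called, and -1.34 ± 0.50 with oxLDL (edgeR adjusted p = 0.0321). That last call was lost without WT oxLDL replicate 2 (-1.07), without KO oxLDL replicate 2 (-0.93) and without KO oxLDL replicate 3 (-1.41), under library totals alone (-1.04), with no filter (-1.31) and by limma on FPKM (-0.57 with pseudocount 1), and the WT response to oxLDL passed without untreated WT replicate 1 (1.36).

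Trim6, at the edge of the same cluster, encodes a ligase known to make free ubiquitin chains that activate the kinase IKKε. It read 0.748, 0.878 and 0.755 FPKM in untreated WT, 1.35, 1.58 and 1.74 in oxLDL-treated WT, 0.536, 0.651 and 0.604 in untreated KO and 0.732, 0.697 and 0.530 in KO with oxLDL. WT with oxLDL stood above the other 9 libraries. Its log2 change was 1.38 ± 0.16 with oxLDL in WT, and KO differed from WT by -0.30 ± 0.16 untreated, not called (edgeR adjusted p = 0.181), and by -1.55 ± 0.16 with oxLDL.

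These genes form a cluster of 11 members on chromosome 7, from 104218793 to 104535361 on GRCm38, which also holds the pseudogene Trim30e-ps1 (4 counts over all libraries). From the Trim6 end to the Trim30d end, the changes with oxLDL in WT were smaller over the first genes and larger from Trim30b onward. Among interferon-linked members, 8 of the 10 in the cluster rose with oxLDL in WT and 8 were lower in untreated KO, with median log2 values of 1.33 and -1.39. Over all genes 23.9% were called higher with oxLDL in WT and 16.2% lower in untreated KO. Outside the cluster 5 of 5 rose and 5 of 5 were lower, with medians of 0.998 and -0.354. With oxLDL, 10 of 10 in the cluster and 5 of 5 elsewhere were lower in KO, with medians of -2.59 and -1.51, beside 27.4% of all genes. The cluster lies 5.59 Mb from Wee1 on the same chromosome. Trim21, counted among the 5 outside the cluster, also lies on chromosome 7, at 7.56 Mb from Wee1. So do Trim66, Trim3, Trim68, Trim72 and Trim28, at 0.614, 4.49, 7.43, 17.9 and 97.1 Mb from Wee1. Of these, Trim68 was higher in KO with oxLDL (1.09) and Trim3 was lower in untreated KO (-0.27). Trim66, Trim72 and Trim28 were not called between genotypes on the TMM scale, and the part of position was not tested.

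**Figure D4:**
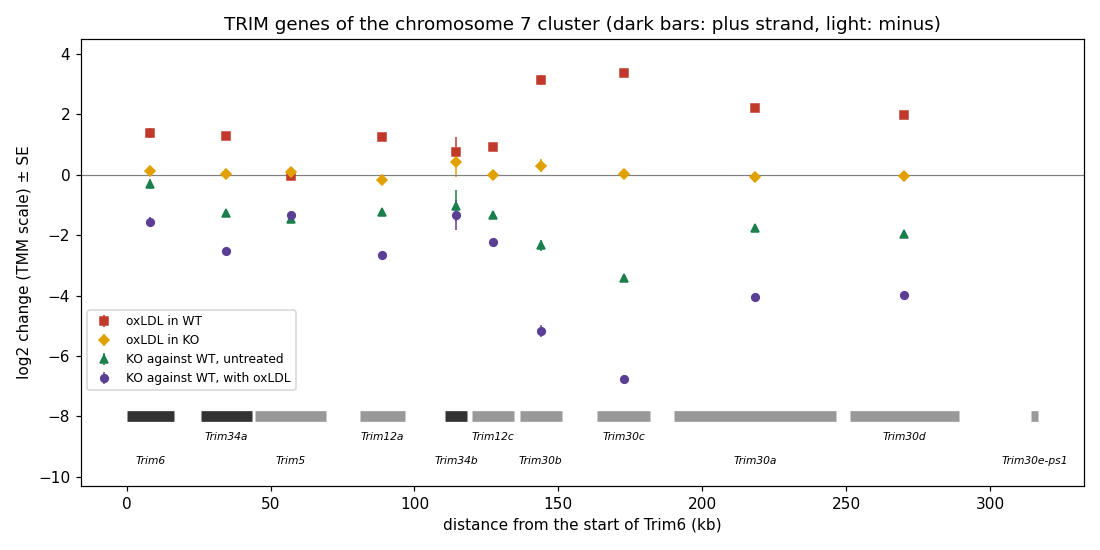
Log2 change ± SE (TMM scale) of the tested TRIM genes of the chromosome 7 cluster in 4 comparisons, plotted at each gene's midpoint by distance in kb from the start of Trim6, with gene extents as bars below. The Trim30 genes on the right spread widest, from 3.37 for Trim30c with oxLDL in WT to -6.75 for Trim30c in KO against WT with oxLDL, and oxLDL in KO stays near 0 along the cluster.

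The remaining 5 interferon-linked members act on sensing and signalling. Trim21 (chromosome 7, 102557921 to 102565486), the cytosolic antibody receptor that sends antibody-coated virus to the proteasome, had 14.2, 12.8 and 12.6 FPKM in untreated WT, 29.5, 29.4 and 31.4 in oxLDL-treated WT, 4.80, 4.26 and 4.60 in untreated KO and 4.24, 4.67 and 4.14 in KO with oxLDL. Both WT groups lay apart from each other and above all KO libraries. Its log2 change was 1.59 ± 0.07 with oxLDL in WT, and KO was lower by -1.43 ± 0.07 untreated and -3.09 ± 0.07 with oxLDL.

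Trim25 (chromosome 11, 88999376 to 89020293), which ubiquitinates the viral RNA sensor RIG-I, had 48.1, 49.3 and 45.4 FPKM in untreated WT, 72.5, 69.7 and 72.7 in oxLDL-treated WT, 39.3, 40.7 and 40.3 in untreated KO and 39.0, 39.2 and 37.9 in KO with oxLDL. It rose with oxLDL in WT by 1.0 ± 0.04 on the log2 scale, and with oxLDL KO was lower by -1.19 ± 0.04. Between untreated genotypes the difference was small, at -0.14 ± 0.04 (edgeR adjusted p = 0.018). That call was lost without untreated WT replicate 1 (-0.12), WT replicate 2 (-0.13), KO replicate 1 (-0.13) or KO replicate 3 (-0.14) and with no filter on low counts (-0.13), whereas library totals alone gave -0.25 and kept it. Of the interferon-linked members called lower in untreated KO, Trim25 had the smallest difference.

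Trim56 (chromosome 5, 137105644 to 137116209), a ligase linked to the DNA-sensing pathway of cGAS and STING, had 8.44, 8.41 and 8.51 FPKM in untreated WT, 14.3, 13.4 and 14.0 in oxLDL-treated WT, 6.12, 5.84 and 6.46 in untreated KO and 6.06, 6.12 and 5.88 in KO with oxLDL. Its log2 change of 1.13 ± 0.05 with oxLDL in WT was about as wide as that of Trim25, and the untreated difference of -0.35 ± 0.05 was again the smaller of the genotype differences, with -1.51 ± 0.05 under oxLDL.

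Trim26 (chromosome 17, 36837134 to 36859398), which has been linked to the turnover of IRF3, had 10.3, 10.3 and 10.6 FPKM in untreated WT, 14.1, 13.2 and 14.3 in oxLDL-treated WT, 7.77, 7.42 and 7.97 in untreated KO and 7.65, 7.64 and 7.81 in KO with oxLDL. Its log2 change with oxLDL in WT was 0.82 ± 0.05, and KO was lower by -0.33 ± 0.05 untreated and -1.15 ± 0.05 with oxLDL. In Trim25 and Trim56 the rise with oxLDL in WT was larger than the gap between untreated genotypes. For Trim26 the order depended on the scaling, since library totals alone gave 0.41 with oxLDL in WT and -0.43 between untreated genotypes.

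Trim14 (chromosome 4, 46493781 to 46536122), a member without a RING finger that acts as an adaptor at the mitochondrial protein MAVS, had 6.32, 6.27 and 6.44 FPKM in untreated WT, 8.89, 8.79 and 8.15 in oxLDL-treated WT, 3.32, 3.48 and 3.24 in untreated KO and 3.09, 3.32 and 3.65 in KO with oxLDL. The groups of WT did not overlap each other or KO. Its log2 change was 0.85 ± 0.07 with oxLDL in WT, with a difference of -0.82 ± 0.07 between untreated genotypes and -1.66 ± 0.07 between genotypes with oxLDL. Trim14 overlaps Nans on the opposite strand over 9852 bases, and with the strand setting not given, reads of the pair could not be told apart.

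Of the 10 innate signalling members, 2 were higher and 2 lower with oxLDL in WT (51.2% of all genes called), 0 were called between untreated genotypes (31.0%), where 2 had an unadjusted p under 0.05 by edgeR, and 2 were higher and 2 lower in KO with oxLDL (57.9%). Trim13, a ligase anchored in the endoplasmic reticulum and active in the disposal of misfolded proteins, had 6.74, 6.84 and 7.67 FPKM in untreated WT, 12.2, 14.5 and 15.8 in oxLDL-treated WT, 5.94, 5.22 and 5.98 in untreated KO and 5.82, 5.81 and 4.59 in KO with oxLDL. WT with oxLDL stood above all other libraries, with a log2 change of 1.41 ± 0.12 (edgeR adjusted p = 1.23e-07), and KO was lower with oxLDL by -1.69 ± 0.12 but not called untreated, at -0.20 ± 0.12. Trim27 was the other member called higher, by 0.25 with oxLDL in WT, and lower in KO with oxLDL, by -0.25. Its FPKM in WT was 3.20 to 3.41 without and 2.84 to 3.15 with oxLDL, and neither call was kept under library totals alone (-0.15 and 0.06).

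Trim59 and Trim68 were called lower with oxLDL in WT, by -0.65 ± 0.20 and -0.73 ± 0.21 on the log2 scale. Trim68, at 0.853, 1.43 and 1.18 FPKM in untreated WT, 0.542, 0.618 and 0.415 in oxLDL-treated WT, 1.18, 1.33 and 1.63 in untreated KO and 1.38, 1.5 and 1.25 in KO with oxLDL, was higher in KO than in WT under oxLDL by 1.09 ± 0.21. Trim45, a low member at 0.155 to 0.308 FPKM in WT with oxLDL and 0.526 to 0.639 in KO with oxLDL, was higher in KO there by 0.96 ± 0.27. Library totals alone also called Trim45 lower with oxLDL in WT (-0.86) and Trim59 higher in KO with oxLDL (0.59).

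Trim8, a regulator of cytokine signalling, and Trim41 were the most abundant of the innate signalling members. Trim8 had 11.4, 9.53 and 10.5 FPKM in untreated WT, 11.1, 7.45 and 8.08 in oxLDL-treated WT, 7.49, 7.69 and 7.22 in untreated KO and 8.29, 6.97 and 10.9 in KO with oxLDL. Its log2 difference between untreated genotypes was -0.38 ± 0.16, which did not pass (edgeR adjusted p = 0.0866) and did pass by DESeq2 and under library totals alone. Trim41 had 13.5 to 13.6 FPKM in untreated WT, 10.4 to 11.2 in oxLDL-treated WT, 12.2 to 13.1 in untreated KO and 13.0 to 13.5 in KO with oxLDL, with no call in these 4 comparisons on the TMM scale. Scaled by library totals alone, it was called lower with oxLDL in WT (-0.33) and higher in KO with oxLDL (0.29), while DESeq2 called it higher with oxLDL in WT (0.13).

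Among the 4 chromatin members, Trim28 (KAP1) is the corepressor that KRAB zinc finger proteins bring to transposons, and Trim24 and Trim33 are its relatives that read histone marks. Trim28 had 18.7, 17.2 and 18.0 FPKM in untreated WT, 14.3, 13.4 and 13.6 in oxLDL-treated WT, 17.4, 15.8 and 16.6 in untreated KO and 16.1, 16.6 and 16.7 in KO with oxLDL. It was not called in any comparison, with log2 values of 0.02 ± 0.05 for oxLDL in WT and -0.04 ± 0.05 for KO against WT with oxLDL, and library totals alone turned these to -0.39 and 0.26, both called. Trim24 was lower with oxLDL in WT by -0.74 ± 0.10 and higher in KO than in WT with oxLDL by 0.69 ± 0.10, at 0.550 to 0.625 FPKM in WT with oxLDL and 1.28 to 1.38 untreated. Trim33 was not called on the TMM scale, library totals alone called it lower with oxLDL in WT (-0.39) and higher in KO with oxLDL (0.30), and Trim66 stayed at 0.0287 FPKM or below.

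The 3 NHL-repeat members, whose C-terminal propeller binds RNA or protein, were Trim2, Trim3 and Trim32. With oxLDL in WT 2 of them fell, where 27.2% of all genes were called lower. Trim2, a ligase of neurofilament light chain in neurons, had 0.182, 0.170 and 0.144 FPKM in untreated WT, 0.0381, 0.0249 and 0.0231 in oxLDL-treated WT, 0.189, 0.125 and 0.191 in untreated KO and 0.167, 0.178 and 0.141 in KO with oxLDL. Only WT with oxLDL stood apart, below all other libraries, with 61, 28 and 36 counts beside 195 to 291 in untreated WT. The log2 change was -2.09 ± 0.25 in WT and -0.06 ± 0.22 in KO, and KO was higher by 2.17 ± 0.25 with oxLDL.

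Trim32, a ligase mutated in a limb-girdle muscular dystrophy, had 3.41, 4.16 and 3.48 FPKM in untreated WT, 1.88, 1.56 and 1.65 in oxLDL-treated WT, 3.23, 3.84 and 2.97 in untreated KO and 4.01, 4.18 and 3.75 in KO with oxLDL, again with WT plus oxLDL alone at the bottom. Its log2 change was -0.70 ± 0.12 in WT, and KO was higher by 0.93 ± 0.12 with oxLDL. Trim3 was lower in untreated KO by -0.27 ± 0.09 (edgeR adjusted p = 0.0417) and was not called elsewhere on the TMM scale, while library totals alone called it lower with oxLDL in WT (-0.58) and higher in KO with oxLDL (0.22). It was the 1 member outside the interferon-linked list called lower in that comparison.

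Of the 4 cytoskeleton and muscle members only Trim36, a microtubule-binding ligase, was above 1 FPKM. It had 4.75, 4.74 and 4.62 FPKM in untreated WT, 7.96, 7.93 and 7.18 in oxLDL-treated WT, 8.92, 8.42 and 8.99 in untreated KO and 8.65, 8.33 and 8.44 in KO with oxLDL. Untreated WT stood alone at the bottom, and the other 3 groups lay near each other. The log2 change with oxLDL in WT was 1.12 ± 0.06 (edgeR adjusted p = 6.71e-10) and untreated KO was higher than WT by 1.0 ± 0.06 (edgeR adjusted p = 4.43e-09), the widest rise in untreated KO among the members called. It was the 1 called member of the family that was higher both with oxLDL in WT and in untreated KO.

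With oxLDL, Trim36 differed between genotypes by -0.16 ± 0.06 on the TMM scale, and the direction turned under library totals alone (0.14) and limma on FPKM (0.13). The call was lost without WT oxLDL replicate 1 (-0.15) or replicate 2 (-0.16) and without KO oxLDL replicate 2 (-0.14) or replicate 3 (-0.16). Trim72, a membrane repair protein of muscle, had 0 counts in untreated WT and 22, 22 and 10 counts in WT with oxLDL, at least a 24.3-fold rise over a floor of 3 counts over the group.

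Among the 13 tested other members, 1 was higher and 5 lower with oxLDL in WT, and 5 were higher and 1 lower in KO with oxLDL. The shares called, 46.2% in both comparisons, lay below the 51.2% and 57.9% of all genes. Trim16 (chromosome 11, 62820231 to 62850808), a RING-less member that takes part in the autophagy of damaged lysosomes, had 2.16, 2.31 and 2.11 FPKM in untreated WT, 0.289, 0.245 and 0.252 in oxLDL-treated WT, 2.66, 3.28 and 2.42 in untreated KO and 2.39, 2.89 and 2.79 in KO with oxLDL. WT with oxLDL lay far below the other 9 libraries, an 8.38-fold lower mean FPKM than untreated WT. The log2 change was -2.64 ± 0.14 in WT (edgeR adjusted p = 6.48e-10) and -0.05 ± 0.12 in KO, not called. KO was higher by 3.04 ± 0.14 with oxLDL and by 0.45 ± 0.12 untreated, and the untreated call was lost without untreated KO replicate 2 (0.31) and by limma on FPKM.

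Trim37 (chromosome 11, 87127077 to 87220683), a ligase that guards centriole number and is lost in mulibrey nanism, had 4.20, 4.36 and 4.55 FPKM in untreated WT, 1.30, 1.31 and 1.45 in oxLDL-treated WT, 4.97, 4.74 and 4.93 in untreated KO and 4.69, 5.21 and 5.10 in KO with oxLDL. As for Trim16, WT with oxLDL alone was low, with a log2 change of -1.28 ± 0.07 (edgeR adjusted p = 7.08e-10), and KO was higher by 1.58 ± 0.07 with oxLDL. In untreated cells KO was higher by 0.27 ± 0.07, a call that library totals alone did not keep (0.16).

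Trim29, a RING-less member known from the DNA damage response, had 1.02, 1.06 and 1.25 FPKM in untreated WT, 0.246, 0.243 and 0.270 in oxLDL-treated WT, 1.26, 1.18 and 0.947 in untreated KO and 0.887, 1.36 and 1.02 in KO with oxLDL. Trim7, whose product binds the glycogen primer glycogenin, read 0.271, 0.242 and 0.274, 0.0474, 0.00980 and 0.0191, 0.285, 0.234 and 0.377 and 0.230, 0.314 and 0.263 FPKM in the same order. Both genes repeated the pattern of Trim16, Trim37 and Trim2 at low levels, Trim7 resting on 29, 5 and 12 counts in WT with oxLDL.

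Their log2 changes with oxLDL in WT were -1.72 ± 0.20 for Trim29 and -2.86 ± 0.38 for Trim7, and with oxLDL KO was higher by 1.79 ± 0.20 and 2.99 ± 0.38. Trim7, at a mean of 0.214 FPKM, overlaps 2 transcripts on the opposite strand. They are Gm16170 over 7540 bases (mean 0.125 FPKM) and Gm12184 over 516 bases (mean 4.26 FPKM). With the strand setting not given, reads of the overlaps could not be told apart. Trim47, the fifth member of the other group to fall, changed by -0.70 ± 0.22 with oxLDL in WT and was higher in KO with oxLDL by 1.08 ± 0.22.

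Trim35 and Trim44 were the most abundant of the other members. Trim35, a ligase linked to the glycolytic enzyme PKM2, had 18.8, 20.3 and 19.8 FPKM in untreated WT, 19.8, 20.5 and 20.2 in oxLDL-treated WT, 19.6, 18.4 and 18.9 in untreated KO and 19.0, 18.9 and 19.3 in KO with oxLDL. In FPKM the groups of WT overlapped, and on the TMM scale Trim35 was called higher with oxLDL in WT (0.45 ± 0.04) and lower in KO with oxLDL (-0.38 ± 0.04); library totals alone gave 0.04 and -0.08 and called neither. Trim44, a RING-less member with a ubiquitin-binding zinc finger, had 15.6 to 16.6 FPKM in untreated WT, 11.1 to 13.0 in oxLDL-treated WT, 15.0 to 16.2 in untreated KO and 13.6 to 15.0 in KO with oxLDL. It was not called on the TMM scale, and library totals alone called it lower with oxLDL in WT (-0.44) and higher in KO with oxLDL (0.28).

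**Figure D5:**
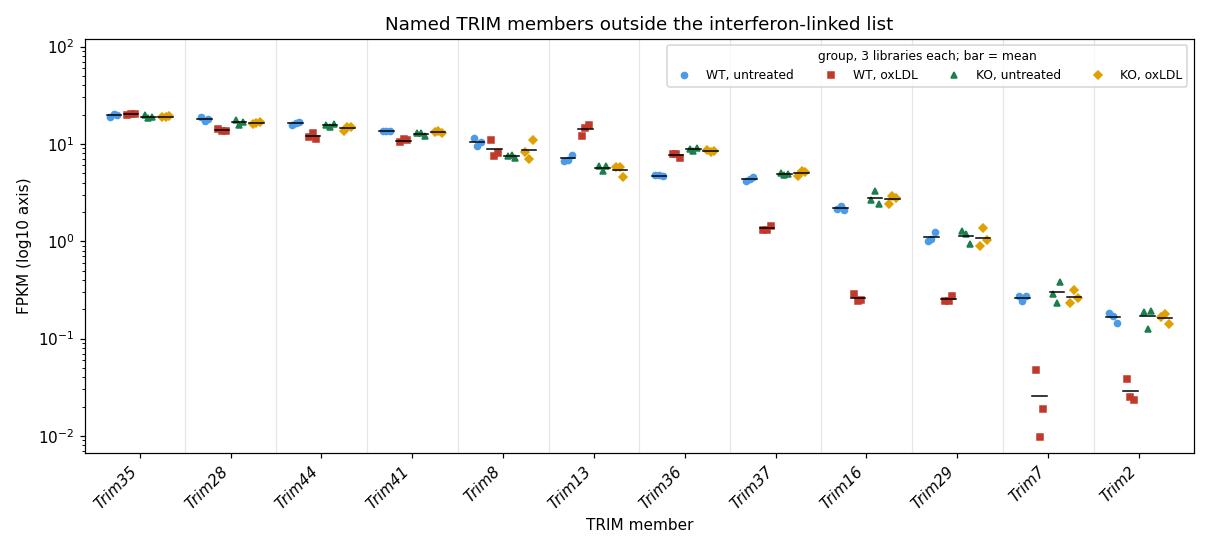
FPKM on a log10 axis of the 12 named TRIM members outside the interferon-linked list in each library, with 4 groups of 3 libraries and a bar at each mean. WT with oxLDL stands alone at the bottom for Trim37, Trim16, Trim29, Trim7 and Trim2 and alone at the top for Trim13, whereas for Trim36 it is untreated WT that stands alone.

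The remaining tested members were low or did not pass. The 4 untested members, Trim69, Trim75, Trim10 and the pseudogene Trim30e-ps1, reached at most 0.0559 FPKM in any library. Trim43a, Trim43c, Trim15, Trim9, Trim46 and Trim17 stayed at 0.620 FPKM or below and were not called by edgeR on the TMM scale in any of the 4 comparisons; with RLE factors or DESeq2, Trim17 was called higher with oxLDL in WT and lower in KO with oxLDL. Trim11, Trim23, Trim39, Trim62 and Trim65, at 0.514 to 5.58 FPKM, were not called on the TMM scale either. Library totals alone called these 5 lower with oxLDL in WT, by -0.39, -0.39, -0.39, -0.72 and -0.57 in that order, and all but Trim65 higher in KO with oxLDL, by 0.39, 0.33, 0.46 and 0.68.

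The genes that TRIM proteins work with moved alongside the interferon-linked members. Of 20 listed sensors, adaptors, kinases and interferon pathway genes, 16 were higher and 1 lower with oxLDL in WT, 0 were called in KO, and in KO against WT 1 was higher and 16 lower both untreated and with oxLDL, by edgeR's quasi-likelihood test against the shares of all genes given above. Ddx58, which encodes RIG-I, the target of TRIM25, had 28.3, 28.8 and 27.8 FPKM in untreated WT, 78.3, 83.9 and 80.8 in oxLDL-treated WT, 5.13, 4.85 and 5.01 in untreated KO and 4.74, 4.90 and 5.42 in KO with oxLDL, the same order of groups. Irf7, the transcription factor that amplifies interferon production, had 115, 117 and 117, 349, 366 and 381, 3.90, 5.03 and 4.92 and 4.34, 5.02 and 5.71 FPKM in that order.

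Tab2, the target of TRIM30a, had a log2 change of 1.03 ± 0.06 with oxLDL in WT and of -1.24 ± 0.06 in KO against WT with oxLDL, but was not called between untreated genotypes (-0.11 ± 0.05). Mavs, the mitochondrial adaptor, was the 1 gene of the list called the other way in these comparisons, at -0.17 ± 0.06 with oxLDL in WT and 0.37 ± 0.06 in KO against WT with oxLDL. Ifnb1, the gene of interferon beta itself, was at 0 to 0.169 FPKM in WT and at 0 in all 6 KO libraries, with no call.

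TRIM proteins that carry other symbols were read beside the family. Mefv (pyrin, an inflammasome sensor) had 18.8, 19.0 and 17.6 FPKM in untreated WT, 102, 108 and 108 in oxLDL-treated WT, 2.04, 1.69 and 1.70 in untreated KO and 1.57, 1.67 and 1.89 in KO with oxLDL, with a log2 change of 2.93 ± 0.07 in WT and a difference of -6.25 ± 0.09 in KO with oxLDL. Pml, the scaffold of nuclear bodies, had 19.7, 19.8 and 20.9, 44.3, 39.3 and 38.7, 7.23, 6.38 and 6.88 and 7.46, 7.30 and 8.84 FPKM in the same order of groups. Mid1, a microtubule-associated ligase, rose by 2.05 ± 0.17 with oxLDL in WT, and it too was lower in KO, by -0.69 ± 0.18 untreated and -2.78 ± 0.18 with oxLDL. Of the 4 such genes tested, 3 were higher with oxLDL in WT and the same 3 were lower in KO in both comparisons, and Mid2, at 0.0748 FPKM or below, was not called. Over all genes 23.9% were called higher with oxLDL in WT, and 16.2% untreated and 27.4% with oxLDL were called lower in KO.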

How the data were processed

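RNA of 12 libraries was sequenced as paired ends after poly(A) selection, per the labels' protocols. Reads were processed with HISAT2 2.0 and Bowtie 0.12.2, per the submitters' processing notes, which name build mm8; the counting tool, the annotation and strandedness of counting were not given in the sources used here. The deposited table holds raw read counts per gene and FPKM values, both made by the authors, per the file headers. Positions are given as GRCm38 because 99.93% of 21986 genes matched by Entrez identifier, and 53 of 53 members, overlapped their GRCm38.p6 position in RefSeq.

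Counts were fitted with edgeR 4.0.16 in R 4.3.3: TMM scaling, the filterByExpr filter (17291 genes), 1 fit over the 4 groups and all 12 libraries, quasi-likelihood tests of 5 contrasts, and Benjamini-Hochberg adjustment over all genes with a threshold of 0.05. Log2 values are on the TMM scale with their SE. TMM factors were lowest in WT with oxLDL (0.832) and highest in untreated WT (1.13), so log2 changes with oxLDL in WT lie above the FPKM ratios. Whether groups overlap was counted on TMM-scaled values, and FPKM is said where it was read from FPKM. Sampling noise was exceeded between replicates in every group (chi-square per gene 11.4 to 33.1, where 1 is noise), and no libraries were identical.

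The members and the role lists were chosen with earlier results of these data known. Named members were all interferon-linked ones, the 8 others with the smallest adjusted p and the 5 others of highest mean FPKM; Trim3, Trim17, Trim24, Trim27, Trim32, Trim43a, Trim45, Trim47, Trim59, Trim68, Trim72 and the partner genes given with values were chosen after their values were seen. Alternatives were DESeq2 1.42.0, RLE factors, library totals alone, no filter, limma 3.58.1 on log2(FPKM + 1) and on log2(FPKM + 0.1), a replicate block, only the groups compared, each library left out and, added after seeing the data, both WT libraries numbered 2 left out. The tests were also run on simulated data, made with few changed genes and without the differences in TMM factors seen here. That run does not bear on the choice of scaling. Promoter and protein sequences were not analysed here.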

Additional observations from a re-analysis of the deposited data

Results flagged for a closer look

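The response to oxLDL differed between genotypes in 21 of the 27 named members by the test of the interaction (edgeR, adjusted p under 0.05). Over the family 25 of 49 tested members and over all genes 41.7% were called; 8 of the named members were chosen for small adjusted p, so the count among the named is partly fixed by that choice. The values are the log2 change with oxLDL in KO minus that in WT. In every one of the 21 the change in KO was not called, while that in WT was. Over all genes only 0.0116% were called with oxLDL in KO, beside 51.2% in WT. The lack of a call in KO is thus shared with nearly all genes.

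Among the interferon-linked members the interaction was -3.35 for Trim30c, -2.84 for Trim30b, -2.29 for Trim30a and -2.01 for Trim30d. It was -1.66 for Trim21, -1.43 for Trim12a, -1.25 for Trim34a, -1.25 for Trim6 and -1.16 for Trim56. The smaller values were -1.05 for Trim25, -0.90 for Trim12c, -0.84 for Trim14 and -0.83 for Trim26. Library totals alone moved 5 of these and Trim36 by over 1.5 times and kept their calls, with -0.74 for Trim56, -0.64 for Trim25, -0.49 for Trim12c, -0.43 for Trim14, -0.41 for Trim26 and -0.75 for Trim36.

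Outside that list, members that rose in WT gave -1.49 for Trim13, -1.17 for Trim36 and -0.44 for Trim35, the last not kept under library totals alone. Members that fell in WT gave 2.71 for Trim7, 2.59 for Trim16, 2.03 for Trim2, 1.66 for Trim29 and 1.32 for Trim37.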

How the results depend on the processing

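No total count of called members moved by over 1.5 times under any alternative run, but counts by direction did: library totals alone gave 22 lower in place of 10 for oxLDL in WT, 20 higher in place of 10 for genotypes with oxLDL and 19 above 0 in place of 8 for the interaction, and limma gave 22, 20 and 16. Limma also gave 1 higher in place of 3 between untreated genotypes. Leaving out each library in turn gave 25 to 28 members for oxLDL in WT (13 to 14 interferon-linked), 0 for oxLDL in KO, 15 to 18 for untreated genotypes (12 to 13), 27 to 32 for genotypes with oxLDL (14 to 15) and 23 to 26 for the interaction (13 throughout). Over all genes, DESeq2 called 110 for oxLDL in KO where edgeR called 2, and none of the 110 was a member. The labels do not say whether replicate numbers pair the samples. Same-numbered libraries had deviations correlated at only -0.031 to 0.031, a check that found no pairing but cannot settle the point with so few libraries. With the replicate block the counts were 28, 0, 17, 29 and 23, with 13, 0, 13, 15 and 13 interferon-linked, and no named member changed its call.

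Of 2808 values of named members under the alternatives, 27 reversed, all under library totals alone or limma. A value was counted as reversed where its sign differed from the edgeR fit with TMM and either setting called it. For Trim28, Trim41 and Trim44 the TMM fit had called none of the values below, so only those of Trim36 started from a call. Given as library totals, limma with pseudocount 1 and limma with 0.1, oxLDL in WT became -0.39, -0.36 and -0.38 for Trim28 and -0.33, -0.30 and -0.32 for Trim41. KO against WT with oxLDL became 0.26, 0.24 and 0.26 for Trim28, 0.14, 0.13 and 0.14 for Trim36, 0.29, 0.27 and 0.29 for Trim41, and 0.28, 0.26 and 0.28 for Trim44. The interaction became 0.38, 0.35 and 0.37 for Trim28, 0.39, 0.36 and 0.38 for Trim41, and 0.35, 0.32 and 0.34 for Trim44. These settings omit TMM factors by construction. Low counts limit Trim34b, Trim2 and Trim7, and the planned search of promoters for motifs was not run.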

Other observations

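Some low members had their reads in single libraries. Trim17 had 131 counts in WT oxLDL replicate 2 and 10 to 56 in the other 11 libraries, and it overlaps H2aw on the same strand over 2146 bases. Trim43a had 26 counts in WT oxLDL replicate 2 and 22 in KO oxLDL replicate 3, 0 in 7 libraries and 3 to 13 in the rest. Both genes were left uncalled by edgeR with TMM factors in all 4 comparisons.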
